A study of Rattus norvegicus with 8 samples.

Results

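A set of 8 genes of sterol sensing and cholesterol uptake was followed in ovaries of rats exposed to an androgen: the transcription factors Srebf1 and Srebf2, their escort Scap, the retention proteins Insig1 and Insig2, the lipoprotein receptor Scarb1, the ubiquitin ligase Mylip and the sterol carrier Stard4. They were chosen by name, as genes that control SREBP or lipoprotein uptake, and were found through probe sets whose array annotation gives 1 of these symbols and no other. All 8 were measured, of 14217 genes with such a probe set, by 15 of the 31042 probe sets that are not controls. The probe set that was brightest on average across single animals represents a gene, and the dimmer ones are given beside it. Female Sprague-Dawley rats carried a silicone capsule that released 83 µg of 5α-dihydrotestosterone (DHT) per day over 12 weeks, or an empty capsule (CTL), and the ovarian cortex was taken at 15 weeks of age, 3 single animals per group. A further array per group held RNA pooled from the same 3 animals, so it is no independent replicate, and p-values that count it as replicate 4 are too small. DHT is an androgen that aromatase cannot turn into estrogen, and the treatment serves as a model of polycystic ovarian syndrome. By the study's histology, DHT-treated ovaries largely lacked corpora lutea, which CTL ovaries mostly had.

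Cells read their sterol content in the membrane of the endoplasmic reticulum. The SREBP proteins, products of Srebf1 and Srebf2, are made there as inactive precursors. When sterols are scarce Scap carries them to the Golgi, where proteases release the part that enters the nucleus and raises transcription of genes of cholesterol synthesis and of Insig1 and Stard4. When sterols are plentiful Insig1 and Insig2 hold Scap back. Scarb1 takes up cholesteryl ester from high density lipoprotein, the main lipoprotein of rats and a chief source of cholesterol for steroid synthesis in the rat ovary, and Mylip, a target of the sterol receptor LXR, lowers lipoprotein uptake as a ubiquitin ligase. Stard4 carries sterol between membranes in the cytosol.

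The promoters of both Insig genes and of Srebf2 are shown because Insig1 and Insig2 do the same task while only Insig1 was apart between the groups on its brightest probe set, and because SREBPs also act on the gene of SREBP2. Each is the stretch of 250 bases before a transcription start in RefSeq (GRCr8), which held 7 such stretches for 6 of the 8 genes. Capitals mark matches, on either strand, to a CCAAT box (CCAAT), which binds the SREBP partner NF-Y, to an E-box (CACGTG) or to the first letters of a sterol regulatory element (TCACNCCA).
Insig1, chr4:8057770-8058019, minus strand: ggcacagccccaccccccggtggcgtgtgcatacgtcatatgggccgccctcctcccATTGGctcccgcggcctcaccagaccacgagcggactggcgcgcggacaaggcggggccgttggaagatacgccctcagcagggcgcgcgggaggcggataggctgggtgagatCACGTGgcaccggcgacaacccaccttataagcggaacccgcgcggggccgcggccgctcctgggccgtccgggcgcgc
Insig2, chr13:35040099-35040348, minus strand: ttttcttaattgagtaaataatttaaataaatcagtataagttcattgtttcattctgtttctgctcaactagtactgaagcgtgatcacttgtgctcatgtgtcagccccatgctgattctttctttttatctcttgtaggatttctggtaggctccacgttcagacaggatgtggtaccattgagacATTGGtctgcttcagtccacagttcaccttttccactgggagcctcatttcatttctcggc
Srebf2, chr7:115543057-115543306, plus strand: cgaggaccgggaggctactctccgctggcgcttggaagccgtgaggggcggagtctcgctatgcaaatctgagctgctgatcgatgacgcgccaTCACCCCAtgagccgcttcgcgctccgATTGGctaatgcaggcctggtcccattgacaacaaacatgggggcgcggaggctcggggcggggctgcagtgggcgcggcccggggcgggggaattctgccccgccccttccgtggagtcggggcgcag
The full element, TCACNCCAC, occurred in none of the 7 stretches and in 0.974% of 33469 RefSeq promoters of the same length. Its shorter form, which lies within it, occurred in Srebf2 alone of the 7, beginning 156 bases before the start, and in 3.24% of all promoters. A CCAAT box was found in 6 of the 7 stretches and in 34.0% of all promoters, and an E-box in the stretches of Insig1 and Scap and in 5.59% of all promoters. These are matches of letters, not sites known to be bound.

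The values are log2 expression as normalized by the authors with GCRMA, which corrects each probe for background by its base composition and gives 1 value per probe set. Taste, vomeronasal and olfactory receptors, with 27 probe sets, set the background level of an array, taken as the 95th percentile of their values, at 2.6 to 2.96. CTL replicate 3 stood apart from the other arrays, with Pearson r across probe sets of 0.866 to 0.879 to the other CTL animals, whose r to each other was 0.983, and of 0.898 to 0.907 to the DHT animals. For Gapdh, the control probe set at the 3' end minus that at the 5' end, a log2 value that grows as labelled RNA becomes shorter, was 0.395 and 0.617 on CTL replicates 1 and 2, 3.49 on CTL replicate 3 and 2.99 to 3.98 on the DHT replicates. Results that rest on CTL replicate 3 are therefore given with and without it. Markers of granulosa cells were present, with Inha and Foxl2 above 8 on every array. In the theca list Lhcgr was above 8 on every array, but Insl3 was below background on CTL replicate 3, at 2.79. All 4 markers of adipocytes were at or below background on all 8 arrays. The number of arrays limits the precision, and with 3 animals in each group 0.1 is the smallest p of an exact permutation test.

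Stard4 fell in DHT-treated ovaries, and it was the single member that passed the test. Insig1 and Scarb1 were also lower in every DHT animal than in any CTL animal, without passing. Mylip was higher in every DHT animal, and Srebf1, Srebf2, Scap and Insig2 had overlapping groups. In all, 1 of the 8 genes was called lower and 0 higher by limma, where a call required at least a 2-fold difference, p no greater than 0.01 and a false discovery rate no greater than 10%. That rule called 0.351% of all probe sets lower and 0.68% higher. The unadjusted p was under 0.05 for 3 of the 8 genes, Stard4, Insig1 and Scarb1, and for 11.9% of all probe sets. A negative log2 fold change was measured for 7 of the 8 genes, against 62.5% of all probe sets. Every DHT array lay below every CTL array for 3 of the 8 genes, against 6.85% of all probe sets, and above for 1, against 10.6%. The median log2 fold change of the 8 genes was -0.85, against -0.03 over all probe sets.

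**Figure D1:**
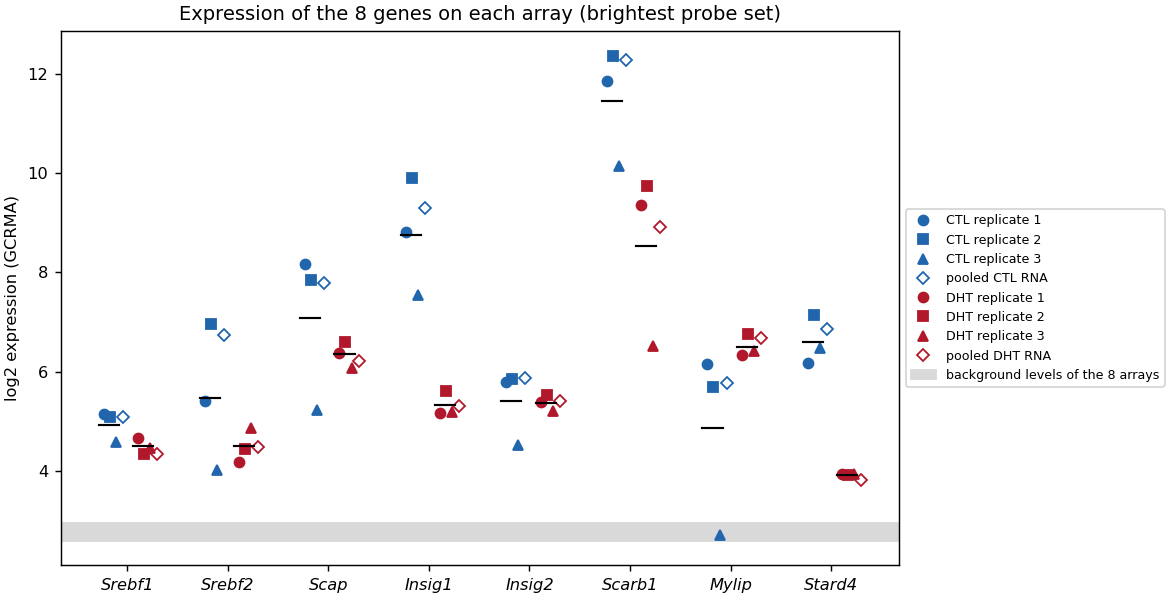
Log2 expression of each of the 8 genes (brightest probe set) on the 3 CTL arrays (blue), the 3 DHT arrays (red) and the arrays of pooled RNA (open diamonds), with black bars at the group means and a grey band over the background levels of the arrays. Insig1, Scarb1 and Stard4 lie lower in all DHT animals, with Stard4 between 3.91 and 3.93 there, while CTL replicate 3 is the lowest CTL animal for each gene but Stard4.

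Stard4, the cytosolic sterol carrier, read 6.18, 7.15 and 6.48 in CTL replicates 1, 2 and 3 and 3.93, 3.91 and 3.93 in the DHT replicates. The lowest CTL animal was thus more than 2 log2 units above the highest DHT animal, and the DHT animals hardly differed among themselves. The log2 fold change was -2.68 (standard error 0.26, limma adjusted p = 0.0508), a fold of 6.41, with a 95% interval of -3.33 to -2.03. The arrays of pooled RNA read 3.81 for DHT and 6.87 for CTL, a difference of -3.06. Against CTL replicate 3 alone the DHT mean differed by -2.56 and against CTL replicates 1 and 2 by -2.74. The call was lost when any 1 DHT replicate was left out (adjusted p = 0.194 to 0.265), in fits where limma called 0 probe sets on the whole array (unadjusted p under 0.05 for 2529 to 2623), while the log2 fold change stayed at -2.68.

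The other probe sets of Stard4 were dim. One read 2.33 to 2.35 in the DHT animals, below background, and 3.74, 3.6 and 2.73 in CTL replicates 1, 2 and 3, the last also below background. This probe set was at least 1.65-fold lower after DHT when the background level stands in for the DHT values (adjusted p = 0.241). Without CTL replicate 3 it was called (adjusted p = 0.00906). The other read 2.76 to 2.84 in DHT and 2.82, 2.87 and 3.82 in CTL animals, with overlapping groups and a log2 fold change of -0.38 (adjusted p = 0.818).

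Insig1 holds Scap in the endoplasmic reticulum and is itself a target of SREBP. Its values were 8.82, 9.9 and 7.54 in the CTL replicates and 5.16, 5.62 and 5.18 in the DHT replicates, so the groups were apart by almost 2 log2 units at their closest. DHT minus CTL was -3.43 on the log2 scale (standard error 0.61, adjusted p = 0.107), a fold of 10.8, just outside the limit of 10% on the false discovery rate. Pooled RNA read 5.31 for DHT and 9.29 for CTL. The DHT mean differed from CTL replicate 3 alone by -2.22 and from CTL replicates 1 and 2 by -4.04. Insig1 was called without CTL replicate 3 (adjusted p = 0.0271) and with the pooled arrays counted as replicate 4 of each group (adjusted p = 0.00762).

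Insig2, which retains Scap as Insig1 does, read 5.8, 5.86 and 4.53 in the CTL replicates and 5.39, 5.53 and 5.2 in the DHT replicates. CTL replicates 1 and 2 lay above all DHT animals and CTL replicate 3 below them. Its log2 fold change was -0.02 with a 95% interval of -1.02 to 0.98 (adjusted p = 0.979), and its sign turned when every array was shifted to the same median (0.03). Without CTL replicate 3 it was -0.46 (adjusted p = 0.105). A dimmer probe set read 3.32 to 3.45 in DHT and 3.56 to 4.24 in CTL animals without overlap, with -0.44 (adjusted p = 0.471).

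The changes of the Insig genes were set against each other within each array. Insig1 minus Insig2, as a log2 value, was -0.22, 0.09 and -0.02 on the DHT arrays and 3.01, 4.04 and 3.01 on the CTL arrays. The groups did not overlap, and CTL replicate 3 lay with the other CTL animals in this measure. The difference in change was -3.41, with p = 0.1 by a two-sided exact permutation test, the smallest that 3 against 3 allow, and adjusted p = 0.2 over the 2 pairs compared. The same measure for Srebf1 minus Srebf2 overlapped between the groups, with a difference of 0.53 (exact permutation p = 0.7, adjusted p = 0.7).

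Scarb1, the receptor for high density lipoprotein, varied most of the 8 genes among DHT animals (SD 1.77). It read 11.86, 12.37 and 10.14 in the CTL replicates and 9.35, 9.75 and 6.51 in the DHT replicates. All DHT animals lay below all CTL animals, with DHT replicate 3 about 3 log2 units below the other DHT animals. DHT minus CTL was -2.92 on the log2 scale (standard error 1.07, adjusted p = 0.383), with a 95% interval of -5.65 to -0.2. It was -1.91 without DHT replicate 3 and -3.58 without CTL replicate 3 (adjusted p = 0.173), and the DHT mean differed from CTL replicate 3 alone by -1.6. Pooled RNA read 8.92 for DHT and 12.27 for CTL, and Scarb1 was called lower with the pooled arrays as replicate 4 (adjusted p = 0.0861).

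A further probe set of Scarb1 gave 9.93, 10.51 and 4.88 in the CTL replicates and 3.98, 5.19 and 2.33 in the DHT replicates. Here DHT replicate 2 lay above CTL replicate 3, and DHT replicate 3 was again the lowest, below background. For this probe set the log2 fold change was -4.61 (adjusted p = 0.396), and -6.39 without CTL replicate 3 (adjusted p = 0.0483), when this probe set was called.

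Srebf1 encodes the SREBP that acts mainly on fatty acid synthesis. It read 5.14, 5.08 and 4.59 in CTL and 4.67, 4.35 and 4.47 in DHT animals, where DHT replicate 1 lay above CTL replicate 3. The log2 fold change was -0.44 (standard error 0.18, adjusted p = 0.446), with a 95% interval of -0.9 to 0.03. A dimmer probe set was below background in all DHT animals and in CTL replicate 3, and read 2.58 to 2.79 in CTL animals. It was at least 1.03-fold lower after DHT on the single-animal arrays, while both pooled arrays read 2.36.

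Srebf2 encodes the SREBP that acts mainly on cholesterol synthesis. Its CTL values were widely spread, at 5.42, 6.96 and 4.01, and its DHT values were 4.18, 4.45 and 4.87. All 3 DHT animals lay between CTL replicates 3 and 1. Srebf2 had a log2 fold change of -0.97 with a 95% interval of -2.92 to 0.98 (adjusted p = 0.849), and -1.69 without CTL replicate 3 (adjusted p = 0.173). Without CTL replicate 2, the highest animal, it was -0.22. The DHT mean was 0.48 above CTL replicate 3 alone. The other probe set of Srebf2 was below background in both groups.

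Scap, the escort that senses cholesterol, read 8.17, 7.85 and 5.23 in CTL and 6.38, 6.59 and 6.07 in DHT animals. CTL replicates 1 and 2 lay above, and CTL replicate 3 below, every DHT animal. The log2 fold change was -0.74 (adjusted p = 0.896) with all animals and -1.66 (standard error 0.2, adjusted p = 0.0367) without CTL replicate 3, when Scap was called lower, whereas the DHT mean was 1.12 above CTL replicate 3 alone. Without CTL replicate 1 it was -0.19 and without CTL replicate 2 it was -0.35. Pooled RNA read 6.22 for DHT and 7.78 for CTL. Its other probe set was below background in all DHT animals and in CTL replicate 3.

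Mylip, the ubiquitin ligase, was the only member with a higher mean after DHT. It read 6.15, 5.7 and 2.72 in CTL and 6.34, 6.75 and 6.41 in DHT animals. Every DHT animal lay above every CTL animal, but CTL replicates 1 and 2 were close to them and CTL replicate 3 was below its background level. The log2 fold change was 1.64 (standard error 0.95, adjusted p = 0.638), and 0.58 (adjusted p = 0.203) without CTL replicate 3 or 2.29 without CTL replicate 1. Pooled RNA read 6.67 for DHT and 5.78 for CTL, a difference of 0.89.

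**Figure D2:**
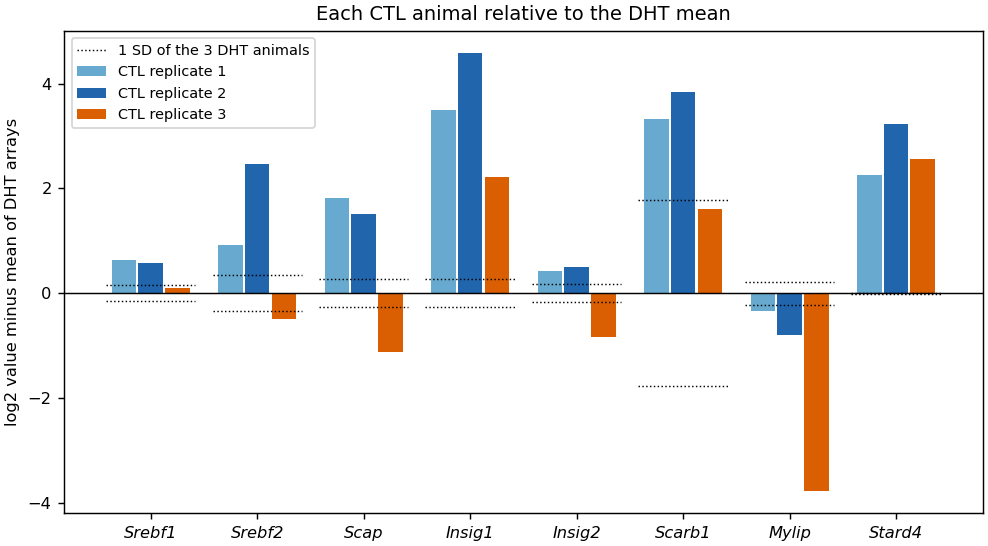
Log2 value of each CTL animal minus the mean of the 3 DHT animals for the 8 genes (brightest probe set), as bars, with dotted lines at 1 SD of the DHT animals on either side of 0. For Insig1, Scarb1 and Stard4 all CTL bars point up, and for Srebf2, Scap and Insig2 the bar of CTL replicate 3 points down while the others point up.

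The 8 genes thus differed in how far they rested on CTL replicate 3. Without it, 3 members were called lower, Insig1, Scap and Stard4, and 0 higher, where 3.12% of all probe sets were called lower and 2.11% higher. With the pooled arrays as replicate 4, 3 were called lower, Insig1, Scarb1 and Stard4, and 0 higher, where 1.39% of all probe sets were called lower and 1.72% higher, 3.11% in all. The median difference of the 8 genes was -1.68 from CTL replicates 1 and 2 and 0.2 from CTL replicate 3, against 0.02 and -0.1 over all probe sets. The Gapdh 3' to 5' difference moved in the same way, with CTL replicate 3 on the side of the DHT animals. Without that array it was 0.395 and 0.617 on the CTL arrays left and 2.99 to 3.98 on the DHT arrays. In the fit without CTL replicate 3, treatment and the Gapdh difference therefore cannot be told apart. With that difference as a covariate limma called 3747 probe sets, 1088 lower and 2659 higher, and 58.5% of all had an unadjusted p under 0.05. Among CTL animals only replicate 3 had a Gapdh difference in the range of the DHT animals, so this fit rests largely on that array. Stard4 was called lower at -2.6 and Scap (1.09) and Mylip (3.71) were called higher with this covariate. In that fit the log2 fold change of Insig1 was -2.26 in place of -3.43. Insig1 was not called, as its unadjusted limma p of 0.0112 was above the limit of 0.01 (adjusted p = 0.0293). The log2 fold change of Scarb1 was -1.24 in place of -2.92 (unadjusted p = 0.367 in limma).

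**Figure D3:**
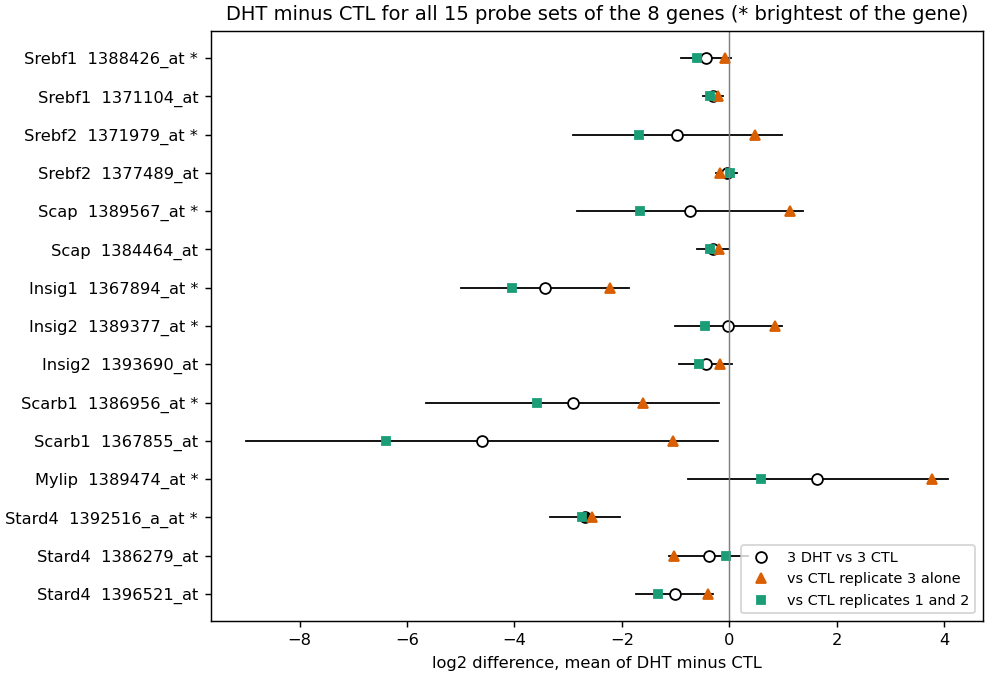
Log2 difference of the DHT mean from the CTL mean for all 15 probe sets of the 8 genes (circles, filled where called, with 95% limma intervals), from CTL replicate 3 alone (triangles) and from CTL replicates 1 and 2 (squares). The 3 estimates coincide for the brightest probe set of Stard4, at -2.74 to -2.56, and spread widely for Insig1, Scap, Srebf2, Scarb1 and Mylip.

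Arrays of ovarian cortex hold RNA of all its cells, so fewer cells of a type and less RNA per cell cannot be told apart. Of 5 measured markers of luteal cells (Ptgfr, Prlr, Rln1, A2m and Hsd11b2) 4 were lower in every DHT than in any CTL animal, against 6.85% of all probe sets. The list was chosen with earlier results of these data known, and the study named Rln1 and A2m among its top repressed genes. The count is therefore no independent check. Among the 4, Ptgfr was below background in all DHT animals and also in CTL replicate 3, at 2.38. The summed level of the 5 luteal markers, as a log2 value, was 8.93 to 10.68 in DHT animals and 11.49, 13.44 and 12.17 in the CTL replicates. The summed level of 4 macrophage markers was 5.66 to 6.2 in DHT and 6.51 to 8.13 in CTL animals, that of 2 endothelial markers 6.16 to 6.66 and 6.96 to 8.13. In the macrophage list Cd68 and C1qa were apart, whereas Csf1r and Cd163 overlapped between the groups. The summed level of 5 granulosa markers was 12.3 to 12.54 in DHT and 11.13 to 11.87 in CTL animals. In that list Amh, Inha and Inhbb were higher in every DHT animal without being called, Foxl2 had a log2 fold change of 0.09 and Cyp19a1, the aromatase, had -2.91 (adjusted p = 0.404), both with overlapping groups. The sums were also apart for 4 stroma markers, at 11.36 to 11.69 in DHT and 9.62 to 11.2 in CTL animals. The same held for 4 oocyte markers, at 5.97 to 6.5 and 5.02 to 5.63. A sum follows its brightest genes: Pdgfra and Dcn were apart but Tcf21 and Col1a1 overlapped. Of the oocyte markers only Zp2 was apart, and Zp1 was below background on all arrays. The sums overlapped for 4 theca markers, at 9.91 to 11.58 and 8.93 to 12.01. The theca peptide Insl3 (log2 fold change 3.11, adjusted p = 0.0575) and the oocyte coat protein Zp2 (1.55, adjusted p = 0.087) were called higher. The 4 hepatocyte markers summed to 4.44 to 4.45 in DHT and 4.43 to 4.64 in CTL animals. The part of these cell types in the values of Stard4, Insig1 and Scarb1 was not tested.

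The genes whose pattern over the 6 single-animal arrays was most like that of a member were sought among 14267 probe sets above background. With so many probe sets and 6 arrays the leading Pearson r was high for every member, at 0.984 to 1.0 for the first 3 genes, and it reflects the difference between the groups and between CTL animals alike. Insig1 was most like Idi1 (r = 0.998), an isomerase of the mevalonate pathway, followed by Fkbp5, a chaperone induced by steroid hormones, and Afmid, an enzyme of tryptophan breakdown. Scarb1 was most like Fdx1 (r = 0.999), which passes electrons to the enzyme that cleaves the side chain of cholesterol, Mrap (r = 0.994), a partner of melanocortin receptors, and a probe set of Star (r = 0.992), which brings cholesterol into mitochondria. Stard4 was most like Elapor1, Srxn1 and Nap1l5 (r = 0.997 to 0.998). For Scap these genes were Tspan12, Map2k1 and Cyba, for Insig2 Necap1, Sbds and Zwint, for Mylip Nsmaf, Pcbp2 and Itm2c, for Srebf2 Slc12a7, Tmem100 and Anp32e, and for Srebf1 Afg3l1, Prxl2b and Serp1.

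Of 67 measured genes in 6 lists around the switch, 3 were called lower and 0 higher, against 0.351% and 0.68% of all probe sets. The 3 are in the lists of SREBP targets, and a difference between lists was not tested. Outside those lists, Star was called lower (adjusted p = 0.0258) and Fbxw7 higher (adjusted p = 0.0916) with the pooled arrays as replicate 4, and the sterol carrier Scp2 (adjusted p = 0.0521) and the LXR gene Nr1h2 (adjusted p = 0.062) were called lower without CTL replicate 3. Of 9 measured genes that cleave or degrade SREBP pathway proteins, 0 were called, 2 had a negative log2 fold change and the median was 0.24. Mbtps2, the protease that makes the second cut in SREBP, read 6.5 to 6.57 in DHT and 5.81 to 6.27 in CTL animals without overlap (adjusted p = 0.281), and Fbxw7, which marks nuclear SREBP for degradation, had 1.37 (adjusted p = 0.373). Rnf145, a ligase that targets Scap, had 0.24 (adjusted p = 0.777).

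Of 8 measured lipoprotein receptors and adaptors 0 were called, with a median log2 fold change of 0.1. Lrp1, a large receptor for lipoprotein remnants, read 8.83 to 9.53 in DHT and 7.81 to 8.61 in CTL animals, a log2 fold change of 0.81 (adjusted p = 0.373), and its chaperone Lrpap1 had 0.47 (adjusted p = 0.31). Neither overlapped between the groups, and both lay opposite to Scarb1. Cd36, a scavenger receptor of the same family as Scarb1, had -0.61 (adjusted p = 0.561).

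Of 10 measured sterol carriers 0 were called, and the median was -0.1. Star differed from the others, at 11.47, 12.39 and 11.35 in CTL and 8.34, 9.62 and 6.01 in DHT animals (log2 fold change -3.75, adjusted p = 0.21). As for Scarb1, DHT replicate 3 was the lowest. Stard5, a relative of Stard4, had -0.33 (adjusted p = 0.896), and Tspo, a protein of the outer mitochondrial membrane, had -0.72 (adjusted p = 0.896).

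Of 17 measured SREBP targets of sterol synthesis 2 were called lower and 0 higher, against 0.351% and 0.68% of all probe sets. The 2 called were Cyp51 (log2 fold change -3.1, adjusted p = 0.0629) and Tm7sf2 (at least 19.8-fold lower, adjusted p = 0.0628). Of the 17, 15 were lower in every DHT than in any CTL animal, against 6.85% of all probe sets. The median of the 17 was -2.64, against -0.03 over all probe sets. Idi1 read 10.13, 11.17 and 8.13 in CTL and 5.42, 6.03 and 5.47 in DHT animals, the order seen for Insig1 (log2 fold change -4.17, adjusted p = 0.119). Hsd17b7 had -5.64 (adjusted p = 0.106) and Nsdhl, a dehydrogenase of sterol demethylation, had -2.63 (adjusted p = 0.18).

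Of 13 SREBP targets of fatty acid synthesis 1 was called lower and 0 higher, against 0.351% and 0.68% of all probe sets. The 1 called was Acsl3, an acyl-CoA synthetase (log2 fold change -2.38, adjusted p = 0.052). The median of the 13 was -0.67. Me1, the malic enzyme, had -2.01 (adjusted p = 0.121) and Fasn had -1.3 (adjusted p = 0.15). Mid1ip1, a regulator of acetyl-CoA carboxylase, went the other way, at 9.68 to 10.17 in DHT and 6.46 to 8.7 in CTL animals (log2 fold change 2.1, adjusted p = 0.286). Of the 10 genes of LXR and its targets, the group to which Mylip belongs, 0 were called and the median was -0.01. That median hides a spread from -1.02 to 1.7, with 6 genes negative and 4 positive. Rxra, Abcg5 and Abcg8 were at or below background on all 8 arrays, while Abca1 had 1.7 (adjusted p = 0.688). Lpcat3, a phospholipid remodelling enzyme, had -1.02 (adjusted p = 0.412), Abcg1, a sterol exporter, had 0.86 (adjusted p = 0.553) and Rxrb, a partner of LXR, had 0.29 (adjusted p = 0.56).

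**Figure D4:**
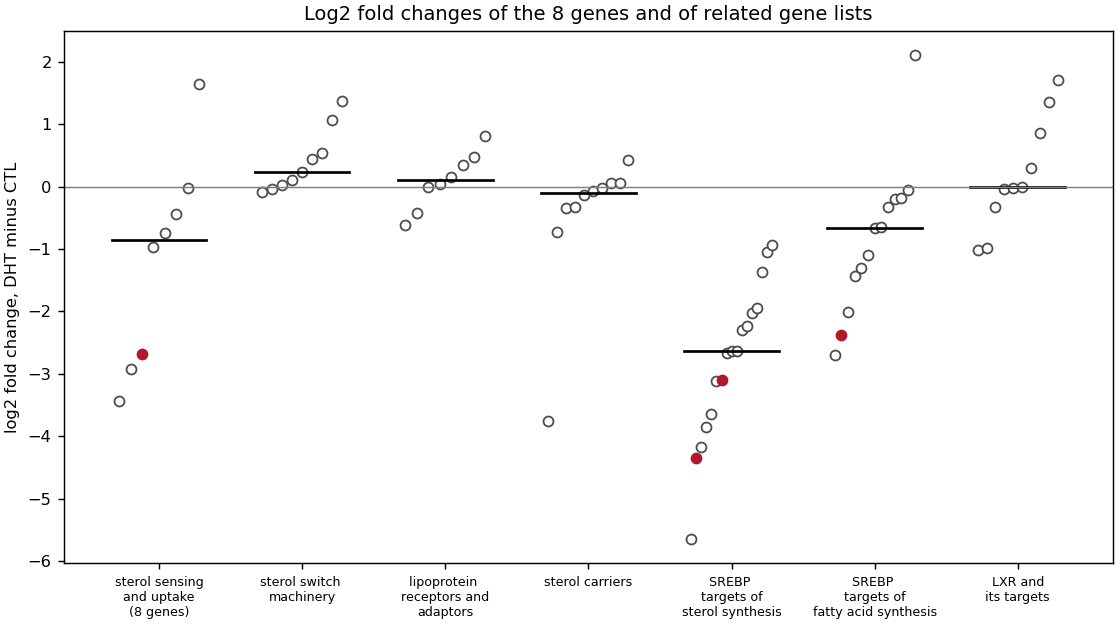
Log2 fold change, DHT minus CTL, of the 8 genes of sterol sensing and uptake and of 6 lists of related genes, 1 circle per gene, filled red where called, with black bars at the medians. The medians lie between -0.1 and 0.24 for the switch machinery, the receptors, the sterol carriers and the LXR group, and at -2.64 for SREBP targets of sterol synthesis. In the LXR group 3 of the 10 genes were at or below background on all 8 arrays.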

How the data were processed

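RNA of ovarian cortex was amplified, labelled with biotin and hybridized by the authors to an Affymetrix whole-genome expression array of the rat, with 3 single animals and 1 pool of their RNA per group. The deposited table gives log2 expression, background-corrected, normalized over the arrays and summarized by the authors with GCRMA (version not given in the sources used here). Pooled arrays were left out of the main comparison. Of 31042 probe sets beside 57 controls, 20826 carry 1 gene symbol, 436 several and 9780 none here.

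The 3 DHT and 3 CTL arrays were compared in limma 3.58.1 (R 4.3.3) by a linear model with moderated variances. P-values were adjusted by Benjamini-Hochberg across the 31042 probe sets, and adjusted p-values come from this model or, where so stated, from the model on other arrays. Intervals are 95% intervals of limma. The genes named are the 8 members, in each of 6 related lists (79 genes, 67 measured) the called genes and up to 3 others with the smallest p, and for each member the 3 genes most alike. Marker lists were checked for 9 cell types. Members, lists and alternatives were chosen with earlier results of these data known, and the promoter motifs after the sequence table had been opened. Dose, duration and age are from the study's methods. The fit was tested on simulated arrays.

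Alternatives tried were use of the pools as replicate 4, a mean-variance trend, the Gapdh 3' to 5' difference in the model, quantile normalization, each array left out in turn, a replicate block, a gene's probe sets averaged, removal of dim probe sets, a false discovery rate of 5% without a fold limit, and scaling to equal medians. Promoter sequences are those of RefSeq, GRCr8.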

Additional observations from a re-analysis of the deposited data

How the results depend on the processing

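Against 1 member called lower and 0 higher, and 3 related genes lower and 0 higher, the pooled arrays as replicate 4 gave 3 members lower and 20 related genes lower and 2 higher. Over all probe sets the main fit called 109 lower and 211 higher, and the fit with the pools 433 and 533. Leaving out dim probe sets gave 2 members and 6 related genes lower, while quantile normalization and the mean of all probe sets each gave 2 members lower, Insig1 and Stard4. Without dim probe sets 177 were called lower and 266 higher in all. Quantile normalization called 86 and 87, and the mean of all probe sets 90 and 166. A false discovery rate of 5% gave 0 members and 0 related genes lower. The Gapdh covariate gave 2 members higher and 7 related genes lower and 8 higher, in a fit that called 1088 probe sets lower and 2659 higher. With single arrays left out, the counts were 0 to 3 members lower, 0 to 12 related genes lower and 0 to 1 higher. Leaving out any 1 DHT replicate gave 0 of each. Related genes called lower numbered 6 when CTL replicate 1 was left out, 1 for CTL replicate 2 and 12 for CTL replicate 3. All probe sets called lower in these fits numbered 109, 42 and 968. The cause was not tested.

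The study describes no pairing of animals by replicate number. Same-numbered arrays had deviations from their group means that correlated at -0.0743, 0.443 and 0.342, and not every array correlated best with its own number. With CTL replicate 3 apart from the other CTL animals, these correlations cannot show whether arrays were paired. The replicate block gave 0 members and 0 related genes lower, and 0 probe sets in all against 320.

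The sign turned for Srebf2 (0.28), Scap (1.09) and Insig2 (0.84) with the Gapdh covariate, in the fit that rests largely on CTL replicate 3. It also turned for Insig2 under median scaling (0.03). With single arrays left out Insig2 ranged from -0.46 to 0.21, turning without DHT replicate 3 (0.06), CTL replicate 1 (0.18) or CTL replicate 2 (0.21). The difference between Insig1 and Insig2 ranged from -3.58 to -3.06, and that between Srebf1 and Srebf2 from -0.14, without CTL replicate 2, to 1.08. Dim probe sets of Srebf1, Srebf2, Scap and Stard4 give bounds or no change at this signal.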

Other observations

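DHT replicate 3, which read lowest of the DHT animals for Scarb1 and Star, was also low for Cyp17a1, the enzyme that begins androgen synthesis in theca cells, at 7.62 against 10.78 and 9.95 in DHT replicates 1 and 2. Nr5a1, a transcription factor of steroid-producing cells, read 7.44 there against 8.11 and 8.31. Over the whole array 36 probe sets (0.116%) lay 2 or more log2 units below both other DHT animals on DHT replicate 3, and 1252 (4.03%) lay as far below both other CTL animals on CTL replicate 3, Mylip and Scap among the latter. These genes were chosen after their values were seen.

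The arrays of pooled RNA can be set against the log2 of the mean of the linear values of their 3 animals. For CTL this gave 9.05 for Insig1, where the pool read 9.29, 6.66 for Stard4 (6.87), 11.73 for Scarb1 (12.27), 5.94 for Srebf2 (6.73) and 5.43 for Mylip (5.78). The pool was higher for each of these 5 genes. For DHT it gave 5.34 for Insig1 (5.31), 3.92 for Stard4 (3.81) and 9.06 for Scarb1 (8.92).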
